A study of Oryza sativa with 8 samples.

Results

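The nitrate and nitrite reductases of rice shoots are described here through 3 genes: the nitrate reductases Os08g0468100 (NIA1, also NR1) and Os02g0770800, and the nitrite reductase Os01g0357100. They were chosen as all probe sets of the array that carry exactly 1 of these loci as their gene, which gave 1 probe set for each locus, 3 genes of the 25727 loci that the array's annotation names alone. All 3 probe sets passed the filter on dim signals. The name NIA1 comes from the RefSeq gene table (assembly ASM3414082v1), and that table holds no name other than the locus for the other two.

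RNA came from shoots of rice seedlings labelled 14 days old, grown in hydroponics, of the varieties Prasanna and Varadan. The 4 groups were Prasanna without nitrogen, Prasanna with supplemented nitrogen, Varadan without nitrogen and Varadan with supplemented nitrogen, with 2 arrays each. Per the labels' protocols, all seedlings germinated for 7 days and then spent 10 days in Yoshida medium, a standard nutrient solution for rice, with nitrogen, before the move to medium with or without nitrogen, so the groups without nitrogen had also been fed earlier. These times together exceed the labelled age. The days spent after that move, the chemical form of the nitrogen and whether replicates were separate cultures are not given in the sources used here, so p-values measure only the spread between these arrays, which may be technical.

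Nitrate reductase is a molybdenum enzyme of the cytosol that reduces nitrate to nitrite with electrons from NADH or NADPH. Nitrite reductase, a plastid enzyme with sirohaem and an iron-sulphur cluster, reduces nitrite to ammonium with electrons from ferredoxin, and the ammonium then enters amino acids through glutamine synthetase and glutamate synthase. In plants, transcription of both enzymes is known to be induced by nitrate, through NIN-like protein (NLP) transcription factors among others, and to respond to light and to products of assimilation.

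Values are MAS5 signals on the log2 scale, so that a difference of 1 is a doubling. Each array had been scaled to the same trimmed mean, and the median over all probe sets was 5.59 to 6.26. The 7 markers of green shoot (Rubisco small subunits, Rubisco activase and light-harvesting proteins) lay at 12.65 to 17.33 on the arrays. Of the 4 root markers, the silicon channel gene Lsi1 lay at 9.58 to 10.31, so this marker was not at background, and the other 3 at 0.36 to 6.48. The summed linear signal of the shoot markers was 200598 to 443995 on arrays without nitrogen and 510683 to 870025 on supplemented ones, with the lowest sums on replicate 1 without nitrogen in Varadan (200598) and in Prasanna (258253). None of the 7 passed for the average nitrogen effect (limma; 6 had an unadjusted p under 0.05), and the part of this shift in the results below was not tested. In whole shoots, fewer cells of a type and less RNA per cell cannot be told apart.

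The first question was how the reductases differ between shoots without and with nitrogen. All 3 stood lower without nitrogen in both varieties, and NIA1 and the nitrite reductase passed the test on the average of both varieties, at -2.68 ± 0.20 and -3.71 ± 0.31 on the log2 scale. Os02g0770800 had the largest difference of the 3, -5.06 ± 0.88, with widely differing arrays without nitrogen, and did not pass.

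NIA1, a nitrate reductase, had log2 signals of 13.31 and 13.08 in Prasanna without nitrogen, against 15.76 and 15.62 in supplemented Prasanna. Varadan had 13.01 and 13.55 without nitrogen, against 16.29 and 16.00 when supplemented. The groups did not overlap in either variety, and the gap between the highest array without nitrogen and the lowest supplemented one was 2.07. Averaged over varieties, NIA1 fell by 2.68 ± 0.20 (SE of the limma fit; adjusted p = 0.0218; 95% interval -3.16 to -2.20), which left 15.6% of the supplemented signal. With supplemented nitrogen only 60 to 67 of the 57381 probe sets of an array were brighter, and without nitrogen 702 to 1077 were. NIA1 thus remained a bright signal on every array without nitrogen, at 8265 to 12000 linear units, against 50519 to 80069 on the supplemented arrays. No saturation flags were used here.

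The nitrite reductase Os01g0357100, which takes up the product of nitrate reductase, had log2 signals of 11.86 and 10.90 in Prasanna without nitrogen, against 14.47 and 15.17 in supplemented Prasanna. Varadan had 12.09 and 11.33 without nitrogen, against 15.72 and 15.64 when supplemented. Here too every array without nitrogen lay below every supplemented array, with a gap of 2.38. The average fell by 3.71 ± 0.31 (limma adjusted p = 0.0276; 95% interval -4.42 to -2.99), a 13.0-fold lower signal that left 7.67% of the supplemented level. In linear units the range was 1917 to 4351 without nitrogen and 22645 to 54158 with it.

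Os02g0770800, the other nitrate reductase, had log2 signals of 8.28 and 5.89 in Prasanna without nitrogen, against 12.36 and 12.91 in supplemented Prasanna. Varadan had 9.47 and 5.54 without nitrogen, against 11.93 and 12.23 when supplemented. The groups did not overlap (gap 2.46), but the first array without nitrogen was far above the second in both varieties. The files do not show whether the material or the labels of these arrays differed, which bears on every mean without nitrogen. The average difference was -5.06 ± 0.88 (limma adjusted p = 0.0859, unadjusted p = 0.000603; 95% interval -7.13 to -3.00). On the second arrays without nitrogen the signal stood close to the median of all probe sets, at 0.29 relative to it in Prasanna and -0.27 in Varadan. No detection calls were used here, so how far these 2 signals stood above background is not known, and the size of this gene's difference is uncertain.

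**Figure D1:**
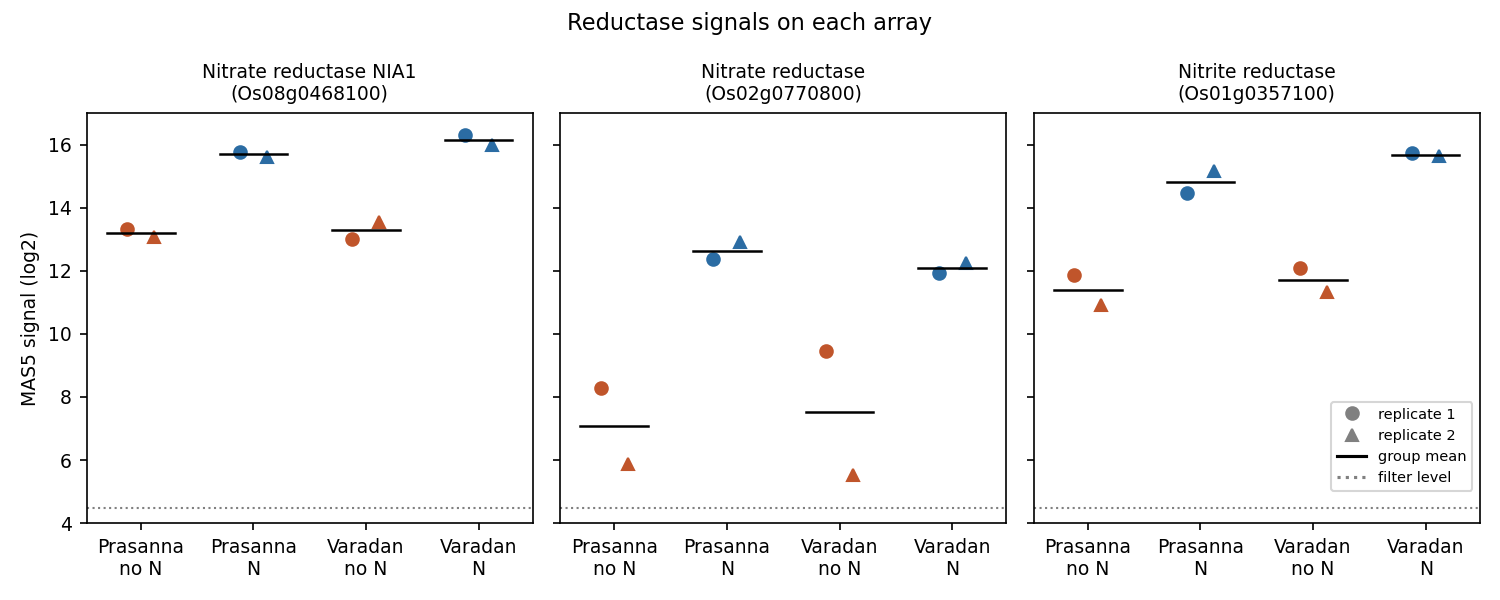
Log2 MAS5 signal of each reductase on each of the 8 arrays (orange, no nitrogen; blue, supplemented nitrogen), with 2 arrays per group, the group mean as a black line and the filter level of 4.483 as a dotted line. Every orange point lies below every blue point in each panel, and the 2 orange points of Os02g0770800 lie 2.39 (Prasanna) and 3.94 (Varadan) apart.

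The spread between replicates without nitrogen set Os02g0770800 apart from the other genes, with each SD resting on 2 arrays. The SD of NIA1 was 0.17 in Prasanna and 0.38 in Varadan without nitrogen, against 0.10 and 0.21 with it, below the median SD of tested probe sets in every group (0.47 and 0.46 without nitrogen, 0.31 and 0.26 with it). The nitrite reductase had SDs of 0.68 and 0.53 without nitrogen, against 0.50 and 0.06 with it. Os02g0770800 had SDs of 1.69 and 2.78 without nitrogen, against 0.39 and 0.21 with it. Only 9.28% of tested probe sets in Prasanna without nitrogen, and 2.41% in Varadan without nitrogen, had an SD as large as that of Os02g0770800.

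These spreads ran the same way in both varieties for Os02g0770800 and the nitrite reductase, whose first arrays without nitrogen were the higher ones, by 2.39 and 3.94 and by 0.96 and 0.76. NIA1 did not share this, with the first array 0.23 above the second in Prasanna and 0.54 below it in Varadan. Over all tested probe sets, the differences between first and second array in the no-nitrogen groups of the 2 varieties correlated at r = 0.46 across probe sets, which are not independent, against -0.04 to 0.11 for the other pairs of groups. The shoot markers were lowest on the first arrays without nitrogen, as given above. An 18S ribosomal RNA control was higher on the first array than on the second in all 4 groups. It had 15.49 and 13.51 in Prasanna and 14.17 and 13.26 in Varadan without nitrogen. With nitrogen it had 14.18 and 13.11 in Prasanna and 13.51 and 12.85 in Varadan. Another 18S probe set had 15.91 and 13.60 in Prasanna and 14.82 and 13.16 in Varadan without nitrogen. With nitrogen that probe set had 13.95 and 12.90 in Prasanna and 13.14 and 12.65 in Varadan. The first array was thus higher at both nitrogen levels, and within each variety the 18S gap was larger without nitrogen. A 25S control was also higher on each first array, but in Prasanna its gap was larger with nitrogen. The part of these in the values of Os02g0770800 was not tested.

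Without replicate 1 of either no-nitrogen group, the average was -2.60 for NIA1, -4.13 for the nitrite reductase and -6.64 for Os02g0770800. Without replicate 2 of either group instead, it was -2.76, -3.28 and -3.48, an alternative added after seeing the data. The direction was the same for each gene in both cases, and the estimate of Os02g0770800 moved the most between them. All 3 genes passed in both of these fits (limma adjusted p from 5.34e-05 to 0.000526), in which 1 array stands for each no-nitrogen group and is assumed to vary like the supplemented ones. There 1202 and 6036 probe sets passed, against 63 with all arrays.

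Of the 34316 probe sets tested, 63 passed for the average nitrogen effect (0.184%), 42 of them lower without nitrogen (0.122%), and 2 of the 3 reductases were among these. By unadjusted p, NIA1 ranked 4 and the nitrite reductase 5 among all tested probe sets, and Os02g0770800 ranked 241. A difference as low as that of the nitrite reductase was found for 0.122% of tested probe sets, and as low as that of NIA1 for 0.484%. All 3 reductases had every array without nitrogen below every supplemented array, a pattern that 5.16% of tested probe sets showed. Leaving out any 1 of the 4 supplemented arrays ended the calls of NIA1 and the nitrite reductase, with limma adjusted p of 0.112 to 0.277, while their estimates stayed at -2.75 to -2.61 and at -3.88 to -3.53. Both calls also ended when the variance prior had no trend (adjusted p = 0.11 for each).

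The comparison was then made in each variety alone. In Prasanna the signal without nitrogen was 17.7% of the supplemented one for NIA1, 9.25% for the nitrite reductase and 2.13% for Os02g0770800. In Varadan it was 13.8%, 6.36% and 4.2%. On the log2 scale the differences in Prasanna were -2.50 ± 0.29, -3.43 ± 0.43 and -5.55 ± 1.24, in the same order of genes, with limma adjusted p of 0.148, 0.167 and 0.37. In Varadan they were -2.86 ± 0.29, -3.98 ± 0.43 and -4.57 ± 1.24, with adjusted p of 0.153, 0.168 and 0.384. None of the 3 passed in either variety with limma, where 0 (0%) and 1 (0.00291%) of all tested probe sets passed, and all 3 had an unadjusted p under 0.05 in both, as 6.63% of tested probe sets had in Prasanna and 8.93% in Varadan. The value of Os02g0770800 rested on single arrays. In Varadan it was -6.54 without replicate 1 and -2.61 without replicate 2 of the no-nitrogen group, and at -2.61 it was smaller than NIA1 (-3.13) and the nitrite reductase (-3.60) in the same fit. In Prasanna it was -6.75 and -4.36 without replicate 1 or 2. In each variety every array without nitrogen lay below both supplemented arrays for all 3 genes, which 8.44% of tested probe sets showed in both varieties at once.

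Whether the 2 varieties differ in this response was tested as the nitrogen effect in Varadan minus that in Prasanna. It was -0.36 ± 0.41 for NIA1 (95% interval -1.32 to 0.60), -0.54 ± 0.61 for the nitrite reductase (-1.98 to 0.89) and 0.98 ± 1.76 for Os02g0770800 (-3.15 to 5.11). None passed (limma adjusted p = 1 for each, and 0 of 3 with an unadjusted p under 0.05), in a comparison where 0% of tested probe sets did. The interval was by far the widest for Os02g0770800, and none of the 3 intervals shows that the varieties respond alike. The sign for NIA1 turned to 0.09 after quantile normalization and to 0.02 without the first no-nitrogen arrays.

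**Figure D2:**
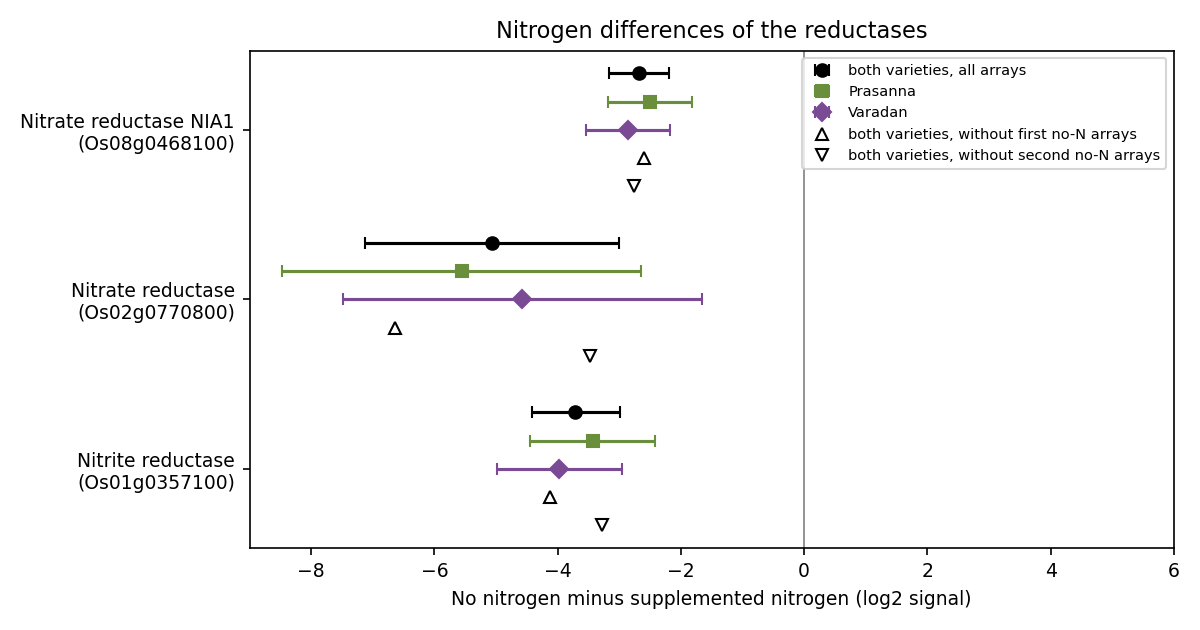
Difference in log2 signal, no nitrogen minus supplemented nitrogen, for each reductase, with 95% intervals of the limma fit for the average of both varieties (black), Prasanna (green) and Varadan (purple). Open triangles give the average without replicate 1 or without replicate 2 of the no-nitrogen groups. All values lie below 0, and those of Os02g0770800 spread from -6.64 to -3.48.

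The third question was whether the varieties differ at one nitrogen level. Without nitrogen, Varadan minus Prasanna was 0.09 ± 0.29 for NIA1, 0.33 ± 0.43 for the nitrite reductase and 0.42 ± 1.24 for Os02g0770800, and the arrays of the varieties overlapped for all 3 genes. With supplemented nitrogen the differences were 0.45 ± 0.29 (95% interval -0.23 to 1.13), 0.87 ± 0.43 (-0.15 to 1.88) and -0.55 ± 1.24 (-3.47 to 2.36). The limma fit shares 1 estimate of spread over all 4 groups, so the SE of a gene is the same at both nitrogen levels. For Os02g0770800 the SDs were 1.69 (Prasanna) and 2.78 (Varadan) without nitrogen, against 0.39 and 0.21 with it. Its ± 1.24 is therefore not the spread of the supplemented arrays alone, nor that of the arrays without nitrogen. Both supplemented Varadan arrays lay above both supplemented Prasanna arrays for NIA1 and the nitrite reductase, and below them for Os02g0770800. Of all tested probe sets, 23.5% had both Varadan arrays above and 20.5% had both below, so such separation was common. After quantile normalization the differences with nitrogen were 0.02 for NIA1 and 0.47 for the nitrite reductase. Without Prasanna replicate 1 or 2 with nitrogen, the nitrite reductase had 0.52 or 1.22 and Os02g0770800 had -0.83 or -0.28, and without Varadan replicate 1 with nitrogen NIA1 had 0.30. None of these differences passed. The limma adjusted p was 1 for each without nitrogen and 0.846, 0.747 and 0.999 with it, and no reductase had an unadjusted p under 0.05, while 0.763% and 0.694% of tested probe sets passed.

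The order of the group means followed from this. For NIA1 it was supplemented Varadan (16.14), supplemented Prasanna (15.69), Varadan without nitrogen (13.28) and Prasanna without nitrogen (13.19). The nitrite reductase had the same order, at 15.68, 14.82, 11.71 and 11.38. For Os02g0770800 supplemented Prasanna came first (12.64), then supplemented Varadan (12.08), Varadan without nitrogen (7.51) and Prasanna without nitrogen (7.08). The neighbours without nitrogen did not differ beyond their spread for any of the 3 genes, and the supplemented neighbours did not pass the test. The order of neighbouring groups is therefore not settled. The no-nitrogen order of the varieties turned for each of the 3 genes under some alternatives, to -0.30 for NIA1 without the second arrays, -1.54 for Os02g0770800 without Varadan replicate 1 and -0.15 for the nitrite reductase without Prasanna replicate 2. The supplemented order of NIA1 was down to a difference of 0.02 after quantile normalization.

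The estimated nitrogen differences of the 3 genes had different sizes. Whether the genes changed unequally was therefore examined for the 3 pairs. The difference between their log2 signals on each array was compared between nitrogen levels. Such a difference shows unequal change between 2 probe sets, not their relative abundance. NIA1 minus the nitrite reductase was 1.45 and 2.17 in Prasanna without nitrogen, against 1.30 and 0.46 in supplemented Prasanna. Varadan had 0.93 and 2.22 without nitrogen, against 0.56 and 0.35 when supplemented. The arrays did not overlap within either variety. The mean change was 1.03, so the nitrite reductase stood lower relative to NIA1 without nitrogen (exact permutation test within varieties, 2-sided, p = 0.0556; adjusted over 3 pairs 0.167). This p is the smallest that the 36 arrangements allow, so no pair could pass.

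NIA1 minus Os02g0770800 was 5.04 and 7.19 in Prasanna without nitrogen, against 3.40 and 2.72 in supplemented Prasanna, and 3.54 and 8.01 in Varadan without nitrogen, against 4.36 and 3.77 in supplemented Varadan. The mean change was 2.38 (exact permutation p = 0.167), and the arrays overlapped in Varadan. Os02g0770800 minus the nitrite reductase changed by -1.36 (exact permutation p = 0.167), by -2.12 in Prasanna and -0.60 in Varadan. For both pairs the first Varadan array without nitrogen lay on the other side of the supplemented Varadan arrays.

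**Figure D3:**
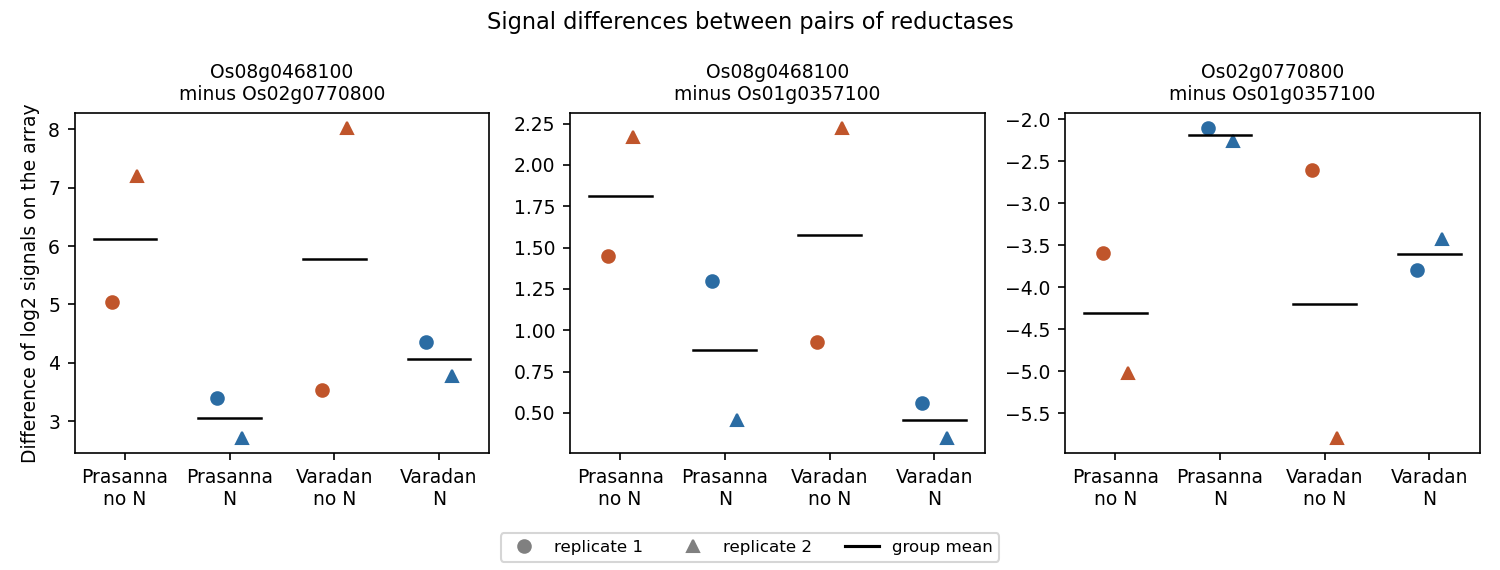
Difference between the log2 signals of 2 reductases on the same array, for the 3 pairs, by group (orange, no nitrogen; blue, supplemented nitrogen; the black line is the mean of 2 arrays). Only the middle panel, NIA1 minus the nitrite reductase, has both orange points above both blue points within each variety.

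Across the 8 arrays, which share their 2 nitrogen levels, NIA1 and the nitrite reductase correlated at r = 0.968 (Spearman 0.81), the nitrite reductase and Os02g0770800 at 0.934 (0.762), and NIA1 and Os02g0770800 at 0.857 (0.548). Of 21507 other loci, 225 correlated with NIA1 above 0.9, 189 with Os02g0770800 and 215 with the nitrite reductase. The nitrite reductase ranked 15 among the loci most like NIA1, and Os02g0770800 ranked 425. These values describe the pattern and are no test.

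The 5 loci most like NIA1 were Os02g0189000 (r = 0.992), Os11g0242500 (0.985), Os05g0595400, Os04g0663700 and Os09g0437900 (0.978 each). Os02g0189000 had log2 signals of 12.27 and 12.25 in Prasanna and 12.21 and 12.42 in Varadan without nitrogen, against 13.53 and 13.49 in Prasanna and 14.12 and 13.90 in Varadan with it. Its Spearman correlation with NIA1 was 1, so the 8 arrays stood in the same order, and its average fell by 1.47 ± 0.17 (limma adjusted p = 0.0376). Os04g0663700 fell by 1.88 ± 0.21 (adjusted p = 0.0376), and the other 3 stood at -3.82 to -0.55 and did not pass. The value of -3.82 is that of Os11g0242500, which lay below the filter level on every array without nitrogen, so its size is uncertain.

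The nitrite reductase was most like Os05g0103200 (r = 0.998), with log2 signals of 11.96 and 11.67 in Prasanna and 12.13 and 11.72 in Varadan without nitrogen, against 13.20 and 13.49 in Prasanna and 13.66 in both Varadan arrays with it. That locus fell by 1.63 ± 0.19 on average (limma adjusted p = 0.043). The next were Os06g0136800 (0.989), Os01g0284700 (0.988), Os06g0647100 and Os03g0775600 (0.987 each), at -1.64 to -0.60 on average, and none of these passed.

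Os02g0770800 was most like Os03g0769100 (r = 0.993), Os03g0452300 (0.992), Os03g0847600 (0.990; CDKF-3 in the RefSeq gene table), Os03g0781000 (0.983) and Os05g0519300 (0.982). Os05g0519300 had the largest average difference of these, -3.65 ± 0.48 (limma adjusted p = 0.0516), with log2 signals of 7.82 and 6.78 in Prasanna and 8.58 and 6.50 in Varadan without nitrogen, against 11.01 and 11.05 in Prasanna and 11.43 and 10.79 in Varadan with it. In both varieties all 5 had the higher no-nitrogen signal in replicate 1, as Os02g0770800 had. The measure of likeness uses these arrays, so this is part of the choice, and none of the 5 passed.

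None of the neighbouring genes in the RefSeq gene table passed. Of the 12 genes nearest to the reductases in that table (2 on either side of each), 8 could be tested. Their average nitrogen differences ran from -1.09 ± 0.59 to 0.70 ± 1.0, and none passed (limma adjusted p of 0.46 to 0.987). Another locus listed as a nitrate reductase, Os08g0468700, has only a probe set that the annotation gives to both it and NIA1. That probe set lay at 0.90 to 3.45 on all arrays, below the filter level, and was not tested.

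The other genes of nitrate assimilation were counted from lists of loci. None of the genes in the 4 lists passed for the average nitrogen effect with limma. Of 9 tested loci listed for nitrate transport, 1 stood lower and 8 higher without nitrogen, with a median of 0.64 against -0.03 for all tested probe sets, and 2 had an unadjusted p under 0.05. Of all tested probe sets, 52.0% stood lower and 13.4% had an unadjusted p under 0.05, and the lists are to be read against these shares. The largest were NAR2.1, which NRT2 transporters need for nitrate uptake, at 1.45 ± 0.93, Os04g0597600 at 0.99 ± 0.44 and Os12g0638200 at 0.70 ± 0.27. In each group replicate 1 of NAR2.1 was above replicate 2, with 9.60 and 7.05 in Prasanna and 9.58 and 7.31 in Varadan without nitrogen, against 7.91 and 4.48 in Prasanna and 7.74 and 7.60 in Varadan with it.

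Some ferredoxin-NADP reductases can pass electrons to ferredoxin in plastids without light, and which of those listed do so was not tested. Of the 4 listed, all 4 stood lower (median -0.32, none with an unadjusted p under 0.05). The largest were Os02g0103800 at -0.67 ± 0.48, Os07g0147900 at -0.35 ± 0.18 and LFNR1 at -0.30 ± 0.34. Of 11 loci of ammonium assimilation, 5 stood lower and 6 higher (median 0.31; 3 with an unadjusted p under 0.05). The plastid glutamine synthetase GS2 stood at -1.39 ± 0.51 and the ferredoxin-dependent glutamate synthase at -1.12 ± 0.52, and GS2 had 12.60 in Prasanna and 12.65 in Varadan on replicate 1 without nitrogen, against 14.36 to 15.26 on the other 6 arrays. The cytosolic glutamine synthetase GLN1-3 stood at 1.96 ± 1.11. It had 5.08 and 5.88 in Prasanna and 6.45 and 6.56 in Varadan without nitrogen. With nitrogen it had 4.04 and 3.94 in Prasanna and 1.49 and 6.63 in Varadan. Its mean with nitrogen lay below the filter level of 4.483, so it entered the test through its no-nitrogen arrays. The size of its difference is uncertain. For GS2 and the ferredoxin-dependent glutamate synthase the first arrays without nitrogen were therefore the low ones, the opposite of Os02g0770800 and the nitrite reductase.

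Among 7 regulators tied to nitrate, 5 stood lower and 2 higher (median -0.56), and 5 had an unadjusted p under 0.05. Os03g0609500 stood at -4.32 ± 0.58 (limma adjusted p = 0.053), with 6.58 and 5.57 in Prasanna and 7.07 and 4.42 in Varadan without nitrogen, against 10.52 and 9.96 in Prasanna and 10.50 and 9.95 in Varadan with it. NIGT1, a nitrate-inducible transcriptional repressor in rice, stood at -4.12 ± 1.09 (adjusted p = 0.202), with 4.93 and 1.34 in Prasanna and 6.60 and 2.51 in Varadan without nitrogen, against 8.22 and 7.19 in Prasanna and 8.17 and 8.27 in Varadan with it. Its mean without nitrogen lay below the filter level of 4.483, so it entered the test through its supplemented arrays and the size of its difference is uncertain. As for Os02g0770800, the arrays of these loci did not overlap and the first no-nitrogen arrays were the higher ones. Every no-nitrogen array lay below every supplemented one for 5.16% of tested probe sets, and these loci were named for their large differences. The first-minus-second differences without nitrogen also correlated between the varieties over all tested probe sets (r = 0.46). Neither trait is thus particular to these loci. The 2 regulators that stood higher were both listed as NLPs. Os09g0549450 stood at 1.84 ± 0.59 (limma adjusted p = 0.268) and NLP1 at 1.48 ± 0.22 (adjusted p = 0.0648). The other listed NLPs stood lower, NLP2 at -0.92 ± 0.33 (adjusted p = 0.305) and NLP3 at -0.41 ± 0.32 (adjusted p = 0.597). NLP1, NLP2 and NLP3 were named after their values were seen.

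For the difference of the nitrogen effects between varieties, none of the list genes passed with limma and none had an unadjusted p under 0.05. In nitrate transport the largest differences were -1.35 ± 1.85 for NAR2.1, 0.88 ± 0.55 for Os12g0638200 and 0.45 ± 0.54 for Os03g0235900. Among the ferredoxin-NADP reductases they were -0.77 ± 0.68 for LFNR1, -0.67 ± 0.95 for Os02g0103800 and -0.17 ± 0.37 for Os07g0147900. In ammonium assimilation they were 1.07 ± 2.21 for the glutamate synthase GLT2, 1.02 ± 1.33 for the glutamate dehydrogenase GDH2 and 0.96 ± 2.21 for GLN1-3. Among the regulators they were 0.91 ± 2.19 for NIGT1, -0.83 ± 0.70 for GRF4 and -0.54 ± 1.19 for Os09g0549450.

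**Figure D4:**
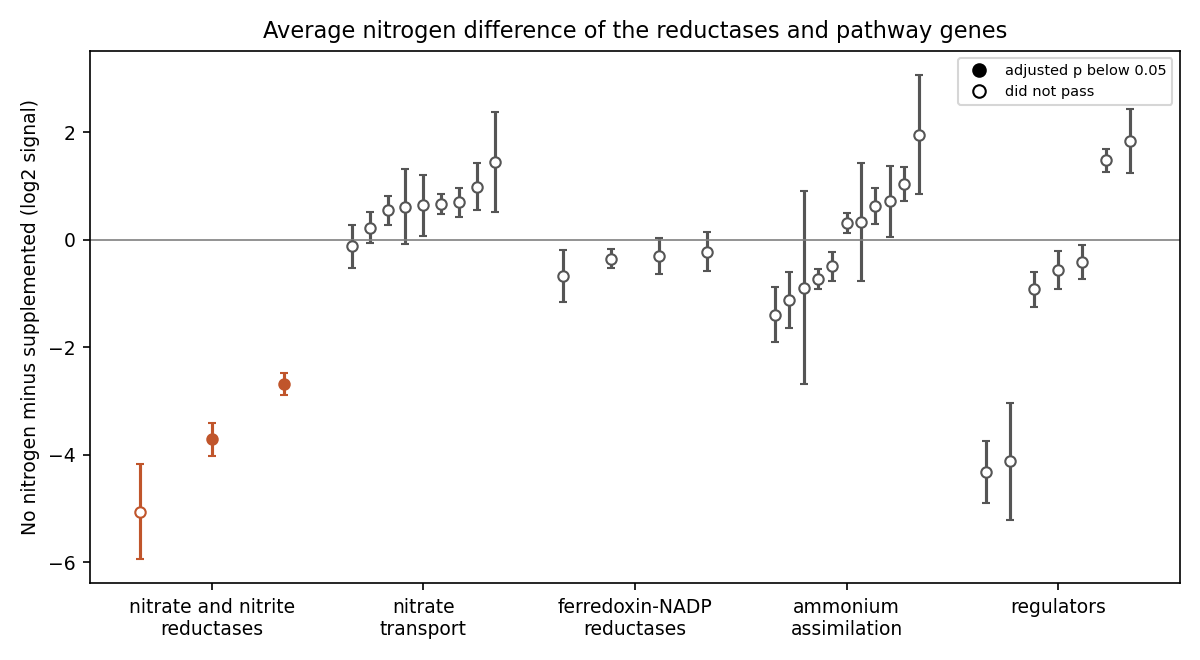
Average nitrogen difference (no nitrogen minus supplemented, log2 signal) with its SE for the 3 reductases and for each tested gene of the 4 pathway lists, ordered by size within each list. Filled points passed the limma test and open points did not; the only filled points are NIA1 at -2.68 and the nitrite reductase at -3.71.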

How the data were processed

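Rice shoot RNA was measured on 8 Affymetrix arrays. The authors deposited log2 values of MAS5 signals, per the submitters' processing notes, which give no version, and the same values as linear intensity, also deposited; both tables differed by at most 3e-08 on the log2 scale, and the log2 table was used. The mean signal after trimming 2% at each end was 499.9 on every array. MAS5 scaling removes a change shared by most transcripts. For arrays, their number limits the precision.

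After leaving out 187 control probe sets, probe sets whose average over the arrays reached 4.483, the percentile 40, entered the test, 34316 in all. The model held a mean for every group over the 8 arrays (lmFit and eBayes with trend, limma version 3.58.1, R version 4.3.3) and left 4 residual degrees of freedom. P-values were 2-sided and adjusted by Benjamini-Hochberg over all probe sets tested, with a threshold of 0.05. Errors are SEs of the fit unless called SD. Differences are no nitrogen minus supplemented nitrogen, or Varadan minus Prasanna. The fit was tested on simulated data with independent noise and the same SD for a probe set in all groups. That setting lacks the larger and correlated spread of the no-nitrogen arrays, so it cannot vouch for the p-values given here.

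The genes and lists were chosen with earlier results of these data known. The rule for named genes took the 3 reductases, the 5 loci whose probe set correlated best with each over the arrays, and from each list the genes that passed and those with the largest differences. List membership was set by locus identifier, with 1 probe set per locus (the brightest on average). Locus Os04g0477500 was dropped because the gene table gives the name NAR2.2 to another gene. A list for cofactor synthesis was left out because that table holds no descriptions, and a list of 2 further reductase loci had no probe set of its own.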

Additional observations from a re-analysis of the deposited data

How the results depend on the processing

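The average nitrogen difference kept its sign for the 3 reductases in all 18 alternatives run, at -2.81 to -2.42 for NIA1, -4.13 to -3.28 for the nitrite reductase and -6.64 to -3.48 for Os02g0770800, and passed in 13, 13 and 4 of them. Leaving out 1 array at a time gave -2.81 to -2.55, -3.94 to -3.47 and -6.05 to -4.08 (limma adjusted p of 0.0135 to 0.229, 0.0135 to 0.277 and 0.0229 to 0.354), with 0 to 3 of the 3 genes past the threshold. Without any 1 supplemented array, 0 passed and 0 of all probe sets did. Without a trend in the variance prior, NIA1 (-2.68) and the nitrite reductase (-3.71) did not pass, 0 reductases did, and 1 probe set in all passed. Os02g0770800 passed without the first replicate of Varadan without nitrogen (-6.05), without the first (-6.64) or the second (-3.48) arrays of both no-nitrogen groups, and with additive terms for nitrogen and variety (-5.06, adjusted p = 0.0429). Without the first or the second arrays, the difference in Prasanna was -2.62 or -2.38 for NIA1 and -3.91 or -2.96 for the nitrite reductase. For Os02g0770800 it was -6.75 or -4.36. In Varadan it was -2.59 or -3.13 for NIA1, -4.35 or -3.60 for the nitrite reductase and -6.54 or -2.61 for Os02g0770800. In these fits each no-nitrogen group holds 1 array, so the error comes from the supplemented arrays alone and passing there is no sign of robustness. The cause of the other changes was not tested.

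Differences that did not pass changed sign in 12 cases. Without 1 array at a time, the difference of nitrogen effects of Os02g0770800 ran from -0.99 to 2.95 (-0.21 without Prasanna replicate 2), and Varadan minus Prasanna without nitrogen ran from -0.18 to 0.36 for NIA1 (-0.03 without Prasanna replicate 2), -1.54 to 2.39 for Os02g0770800 (-0.77) and -0.15 to 0.80 for the nitrite reductase (-0.05 without Varadan replicate 1). The difference of nitrogen effects of NIA1 was 0.09 after quantile normalization and 0.02 without the first no-nitrogen arrays. Varadan minus Prasanna without nitrogen was -0.35 for Os02g0770800 without those arrays and -0.30 for NIA1 without the second. The changes between pairs of reductases ran, without 1 array at a time, from 1.27 to 3.50 for NIA1 minus Os02g0770800, 0.70 to 1.35 for NIA1 minus the nitrite reductase and -2.15 to -0.56 for Os02g0770800 minus the nitrite reductase.

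The count of all probe sets past the threshold for the average effect, 63, was 150 with the replicate block, 120 with array weights, 246 with additive terms, 1202 without the first and 6036 without the second no-nitrogen arrays, and 0 to 84 without 1 array. With the replicate block NIA1 stood at -2.68 (adjusted p = 0.0204), the nitrite reductase at -3.71 (adjusted p = 0.0204) and Os02g0770800 at -5.06 (adjusted p = 0.0555), and 2 reductases passed. The replicate numbers were not taken to pair the arrays over all groups. First-minus-second differences correlated at 0.46 between the no-nitrogen groups of the 2 varieties, and at -0.04 to 0.11 for the other pairs of groups. The main fit treated the no-nitrogen arrays as independent, which the value of 0.46 puts in doubt. Averaging the probe sets of a locus was not run, as each reductase has 1.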
